A study of Mus musculus with 12 samples.

Results

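Elastic fibre and microfibril genes were followed in mouse embryonic fibroblasts (MEFs), connective tissue cells grown from embryos, of 3 SIRT1 genotypes. SIRT1 is an NAD-dependent protein deacetylase. The genes are Mfap2, Mfap4, Mfap5, Eln, Fbn1, Fbn2, Fbln1, Fbln2, Fbln5 and Emilin1, taken by gene name on the array with every probe kept. All 10 were among the 27962 gene names on the array, with 15 of its 41174 probes that are not controls. They were proposed with results of these arrays in view, so their differences between genotypes are given as a description, with no p-value for any gene. A probe entered the fits if it was well above background on all arrays of at least 1 genotype. This left 14 of the 15 probes and 25601 of the 41174.

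The groups were SIRT1 knockout (KO), SIRT1 heterozygous (Het) and wild type (WT) MEFs, with 4 arrays each, 12 in all. Every culture was labelled female, received no treatment, and was harvested while growing in DMEM with 10% serum, 4 mM glutamine and 25 mM glucose. The labels give neither the SIRT1 allele nor the strain or age of the embryos. Whether replicates came from separate embryos or cultures is not stated, so the spread behind each p-value may be technical. Replicates carry the labels' numbers, which are 2 to 5 for KO and Het and 1, 2, 3 and 5 for WT.

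Elastic fibres give connective tissue its recoil. They are laid down on microfibrils, bundles built from fibrillins and decorated with microfibril-associated glycoproteins. Tropoelastin, the soluble precursor, is brought onto this scaffold by fibulins and cross-linked by lysyl oxidases, and emilins lie where elastin and microfibrils meet. Fibroblasts in culture make most of these proteins and secrete them into the matrix.

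A level here is the log2 of the deposited processed signal minus the log2 of the array's 75th percentile, so 0 equals that percentile. A difference between genotypes is on the same log2 scale, and its standard error (SE) comes from 1 limma fit of all arrays. Levels of different probes were not ranked against each other, because probes differ in brightness for reasons other than abundance.

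The arrays numbered 3 stood apart in every genotype. Over tested probes, correlations between 2 arrays of a genotype ran from 0.92 to 0.97 where 1 of them was number 3 and from 0.97 to 1.00 otherwise. The low end without number 3 was WT replicate 1, at 0.97 with WT replicates 2 and 5, which correlated at 0.99 with each other. WT replicate 1 stays among the 9 arrays used below. WT replicate 3 went against its label. Xist, the RNA of the inactive X chromosome, read −2.94 there, against 1.66 to 3.42 on the other 11 arrays (probe A_51_P145453). The Y-linked Ddx3y read 1.04 there, against −10.16 to −4.35 elsewhere (probe A_51_P402994). The targeted gene Sirt1 averaged −0.47 ± 0.29 in KO, 0.37 ± 0.03 in Het and 0.36 ± 0.21 in WT cells at probe A_51_P141152 (SD, n = 4 each). At its other probe, A_52_P358612, it averaged 0.81 ± 0.41, 0.87 ± 0.34 and 0.79 ± 0.24 in the same order. All 6 fibroblast markers were well above background on all 12 arrays. Among these, Thy1 ran from 0.13 to 0.79 in KO, 2.58 to 3.06 in Het and 3.10 to 4.76 in WT cells, with no overlap. Pdgfra ran from −2.85 on WT replicate 2 to 1.87 on WT replicate 3. The sum over the fibroblast list (75th percentile = 1) was 426 to 497 in KO, 470 to 613 in Het and 385 to 472 in WT cells. Smooth muscle markers, 4 of 5 above background on all arrays, had a summed signal (75th percentile = 1) of 160 to 181 in KO, 86.0 to 144 in Het and 88.8 to 409 in WT cells. The low end of the WT range was replicate 3. Of the mesothelial list, Msln and Krt19 were well above background on all 12 arrays and Wt1 and Lrrn4 on 0. Its summed signal was 11.03 to 34.3 in KO, 9.13 to 20.6 in Het and 3.17 to 65.4 in WT cells, with WT replicate 3 again at the low end. Each of the endothelial, macrophage and chondrocyte lists had 2 of 5 genes above background on all arrays (Kdr and Tek, Cd68 and Cd14, Col2a1 and Acan) and 1 on 0 arrays (Pecam1, Ptprc and Matn1). Their sums reached at most 0.49, 1.81 and 4.14 in that order. The skeletal muscle list summed to 8.55 to 11.5 in KO, 5.56 to 10.2 in Het and 8.25 to 31.7 in WT cells. The adipocyte list summed to 0.63 to 8.38, 1.30 to 3.82 and 0.84 to 1.52 in the same groups. Its gene Fabp4 read 2.93 on KO replicate 3. The epithelial and neural crest glia lists summed to at most 0.29 and 2.19. The part of mixed cell types in the results was not tested. In bulk RNA, fewer cells of a type and less RNA per cell cannot be told apart. Differences below are therefore given on all 12 arrays and on the 9 arrays not numbered 3. The arrays numbered 3 were set aside after their values were seen. SEs and adjusted p-values on the other 9 are thus descriptions.

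The core of the fibre, elastin, is read by 1 probe of Eln (A_52_P609972, chromosome 5, 133674539 to 133674598 on mm7, minus strand). It read −0.62, −0.92, −0.40 and −0.50 in KO replicates 2, 3, 4 and 5. It read −3.38, 0.24, −4.02 and −3.92 in the Het replicates of the same numbers. It read −3.82, −3.63, 2.33 and −3.29 in WT replicates 1, 2, 3 and 5. The KO arrays were close together, while the Het and WT groups each held 3 low arrays and a high number 3. On all 12 arrays KO minus WT was 1.49 (SE 1.30) and the groups overlapped. Without the arrays numbered 3, KO cells stood 8.43-fold above WT cells (3.08, SE 0.21) and 9.66-fold above Het cells (3.27, SE 0.21), with no overlap. Het minus WT was −0.67 (SE 1.30) on all arrays and −0.20 (SE 0.21) without number 3, and its sign turned without WT replicate 3 alone (0.81). Slide 3 held replicate 2 of each genotype and WT replicate 3. Slide 4 held KO replicates 4 and 5, Het replicate 5 and WT replicate 5. Slide 1 held KO replicate 3 and Het replicates 3 and 4. Slide 2 held only WT replicate 1, which therefore enters no difference within a slide. Differences within a slide rest on these few arrays and were not tested. For Eln, KO minus WT was 0.03 on slide 3 and 2.85 on slide 4. The slide 3 value averages WT replicates 2 and 3, which lay below and above KO replicate 2.

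**Figure D1:**
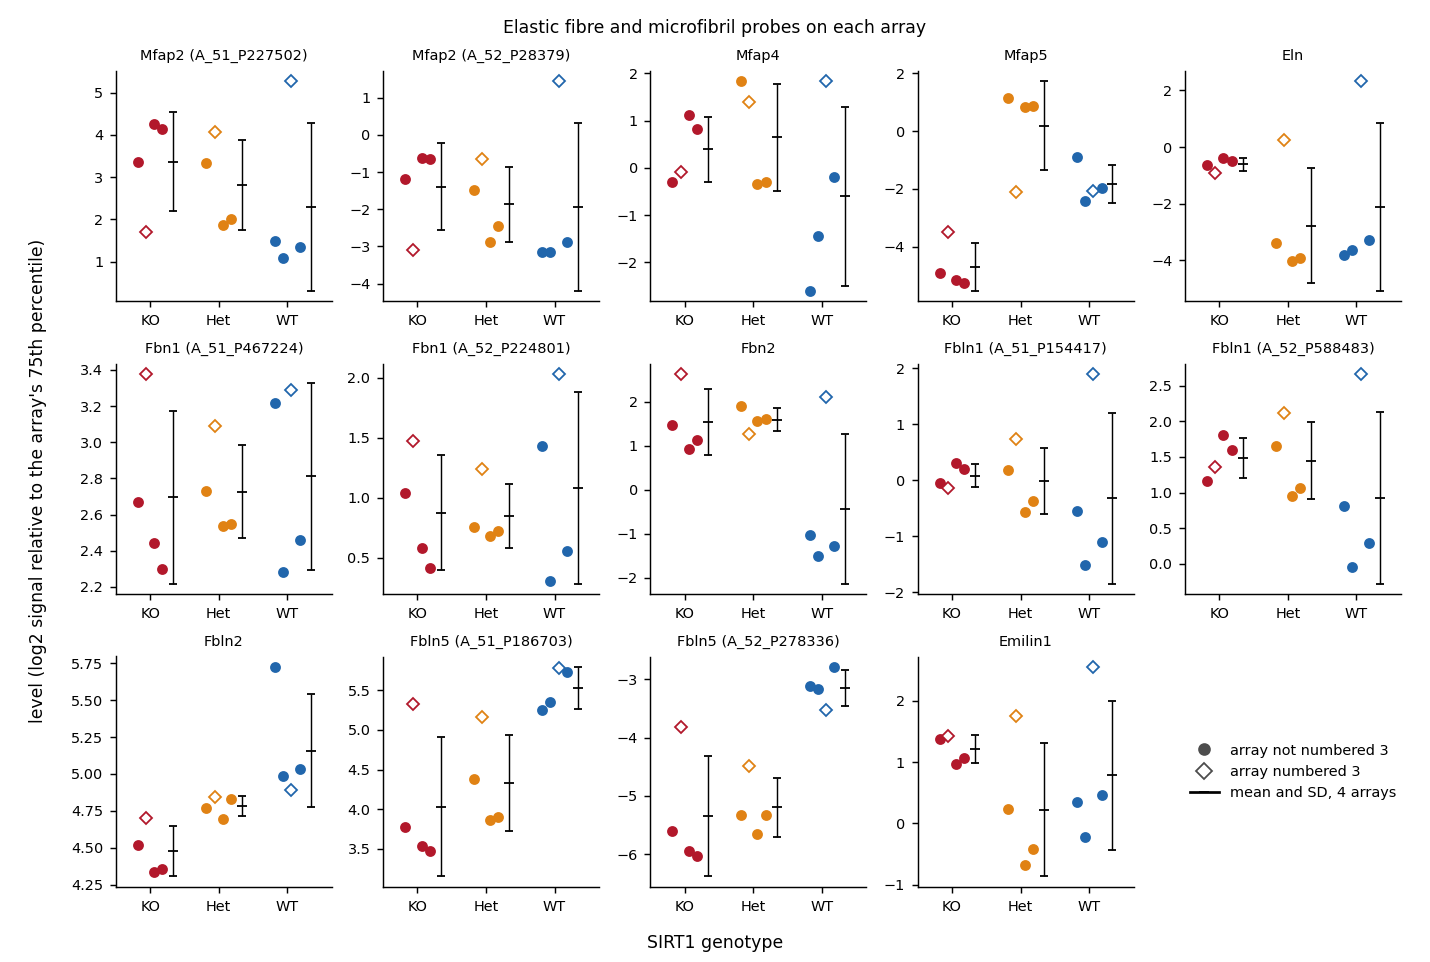
Level of each of the 14 tested elastic fibre and microfibril probes (y axis, log2 signal relative to the array's 75th percentile) on each array by SIRT1 genotype (x axis, KO, Het and WT). Points are arrays, open diamonds those numbered 3, and black marks the mean and SD of 4 arrays. In the Eln panel the KO arrays lie between −0.92 and −0.40, while the number 3 arrays of Het (0.24) and WT (2.33) lie far above the other arrays of their genotype.

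The microfibril-associated glycoproteins include Mfap2 and Mfap5. Mfap2 encodes MAGP-1, a small protein bound to fibrillin along the microfibril, and has 2 probes on chromosome 4. One of them, A_51_P227502 (140394340 to 140394399 on mm7, plus strand), read 3.36, 1.71, 4.25 and 4.13 in KO replicates 2, 3, 4 and 5. The Het replicates of those numbers read 3.34, 4.06, 1.86 and 2.01. The values were 1.49, 1.09, 5.27 and 1.35 in WT replicates 1, 2, 3 and 5. Number 3 was the lowest KO array and the highest Het and WT array, so the groups overlapped. On all arrays KO minus WT was 1.06 (SE 0.92). Without the arrays numbered 3 it was 2.60 (SE 0.40), a 6.08-fold higher signal in KO cells, with no overlap. KO minus Het was 1.51 (SE 0.40) and Het minus WT 1.09 (SE 0.40) on those 9 arrays, also with no overlap, so the Het cells lay between the other genotypes. Within slides KO minus WT was 0.17 on slide 3 and 2.84 on slide 4.

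The other Mfap2 probe lies closer to the start of the gene and reads a second stretch of the transcript. Its 60 bases are shown because both probes of Mfap2 rest on separate sequence, and its position on mm7 is chr4:140392631-140392690, plus strand.
A_52_P28379: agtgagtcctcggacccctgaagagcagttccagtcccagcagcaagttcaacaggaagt
On all arrays KO minus WT at A_52_P28379 was 0.54 (SE 0.99), and without number 3 it was 2.24 (SE 0.34), with no overlap. Het minus WT without number 3 was 0.78 (SE 0.34), with overlap at this probe. On slide 3, KO minus WT was −0.33 here, opposite in sign to the other probe, and on slide 4 it was 2.24. At both probes KO replicate 2 lay above WT replicate 2 and below WT replicate 3 on slide 3. The signs on that slide thus came from averaging the WT arrays. The Mfap2 probes correlated at r = 0.98 over the 12 arrays, which share their RNA, so this is a description. After each probe was centred on its own mean, they differed at most by 0.73, on WT replicate 3.

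The promoter of Mfap2 is shown as the 250 bases before the more upstream of its 2 starts in RefSeq (GRCm38.p6, chr4:141010174-141010423, plus strand). The other start was not examined. This promoter is shown because it can be set beside that of Fbln5, whose level stood the other way in KO cells. Capitals mark motif matches on either strand. The motifs searched were the GC box GGGCGG, the TATA box TATAAA, the CCAAT box CCAAT and the AP-1 site TGANTCA.
Mfap2: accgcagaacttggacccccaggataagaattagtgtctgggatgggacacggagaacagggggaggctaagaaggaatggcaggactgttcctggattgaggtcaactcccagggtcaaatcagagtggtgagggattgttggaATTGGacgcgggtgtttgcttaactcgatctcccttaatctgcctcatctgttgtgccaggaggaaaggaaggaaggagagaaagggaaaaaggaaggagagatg
It held 1 CCAAT match, read on the other strand, and none of the other 3 motifs. Of 32851 promoters of this length, 33.8% held a CCAAT match, 32.7% a GC box, 12.4% a TATA box and 6.75% an AP-1 match.

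Mfap5 encodes MAGP-2, the other glycoprotein of this kind, which binds fibrillins as well. Its probe (A_51_P363681, chromosome 6, 122565741 to 122565800 on mm7, plus strand) had the largest spread of the 14 probes over the 12 arrays. It read −4.90, −3.48, −5.16 and −5.24 in KO replicates 2, 3, 4 and 5. The Het replicates of those numbers read 1.15, −2.12, 0.83 and 0.88. WT replicates 1, 2, 3 and 5 read −0.89, −2.42, −2.07 and −1.96. Every KO array lay below every Het and WT array, while number 3 of the Het group lay inside the WT range. The difference KO minus WT was −2.86 (SE 0.68), a 7.28-fold lower signal, and −3.35 (SE 0.34) without number 3. KO minus Het was −4.88 (SE 0.68), 29.5-fold lower, and −6.06 (SE 0.34) without number 3. Het minus WT was 2.02 (SE 0.68) with overlap and 2.71 (SE 0.34) without overlap once number 3 was left out. On those 9 arrays every Het array lay above every KO and WT array. Within slides 1, 3 and 4, KO minus Het was −2.84, −6.05 and −6.08, and within slides 3 and 4 KO minus WT was −2.66 and −3.24. With the normexp background correction KO minus WT was −1.76.

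Mfap4, a fibrinogen-related glycoprotein that binds tropoelastin and fibrillin, has 1 probe (A_51_P195244, chromosome 11, 61570152 to 61570211 on mm7, plus strand). It ranged from −0.30 to 1.13 in KO, from −0.35 to 1.84 in Het and from −2.60 to 1.84 in WT cells, and all groups overlapped. KO minus WT was 0.99 (SE 0.84) and Het minus WT 1.25 (SE 0.84). Without number 3 these were 1.97 and 1.81 (SE 0.75 each), still with overlap.

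The fibrillins, which form the body of the microfibril, differed from each other. Fbn1, the fibrillin of adult tissue and the gene mutated in Marfan syndrome, lay in a narrow band in all 3 genotypes. Its probe A_51_P467224 (chromosome 2, 125041844 to 125041903 on mm7, minus strand) ranged from 2.30 to 3.38 in KO, 2.54 to 3.09 in Het and 2.28 to 3.29 in WT cells. Its probe A_52_P224801 (125042371 to 125042430) ranged from 0.41 to 1.47, 0.68 to 1.24 and 0.30 to 2.03 in the same order. KO minus WT was −0.11 (SE 0.29) and −0.21 (SE 0.36) at these probes, and no pair of genotypes stood apart with or without number 3.

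Fbn2, the fibrillin made mainly in the embryo, has 1 probe (A_51_P103850, chromosome 18, 58391591 to 58391650 on mm7, minus strand). It read 1.47, 2.64, 0.94 and 1.13 in KO replicates 2, 3, 4 and 5, and 1.92, 1.28, 1.57 and 1.60 in Het replicates of those numbers. The values were −1.03, −1.52, 2.11 and −1.29 in WT replicates 1, 2, 3 and 5. WT replicate 3 was the array that made the groups overlap. For Fbn2, KO minus WT was 1.98 (SE 0.69) and Het minus WT 2.02 (SE 0.69). Without number 3 these were 2.46 and 2.98 (SE 0.20 each), or 5.49-fold and 7.86-fold higher, with no overlap. Within slides 3 and 4, KO minus WT was 1.17 and 2.32 and Het minus WT 1.62 and 2.89. On slide 3, KO replicate 2 (1.47) and Het replicate 2 (1.92) lay above WT replicate 2 (−1.52) but below WT replicate 3 (2.11). The sign on that slide thus came from averaging the WT arrays.

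**Figure D2:**
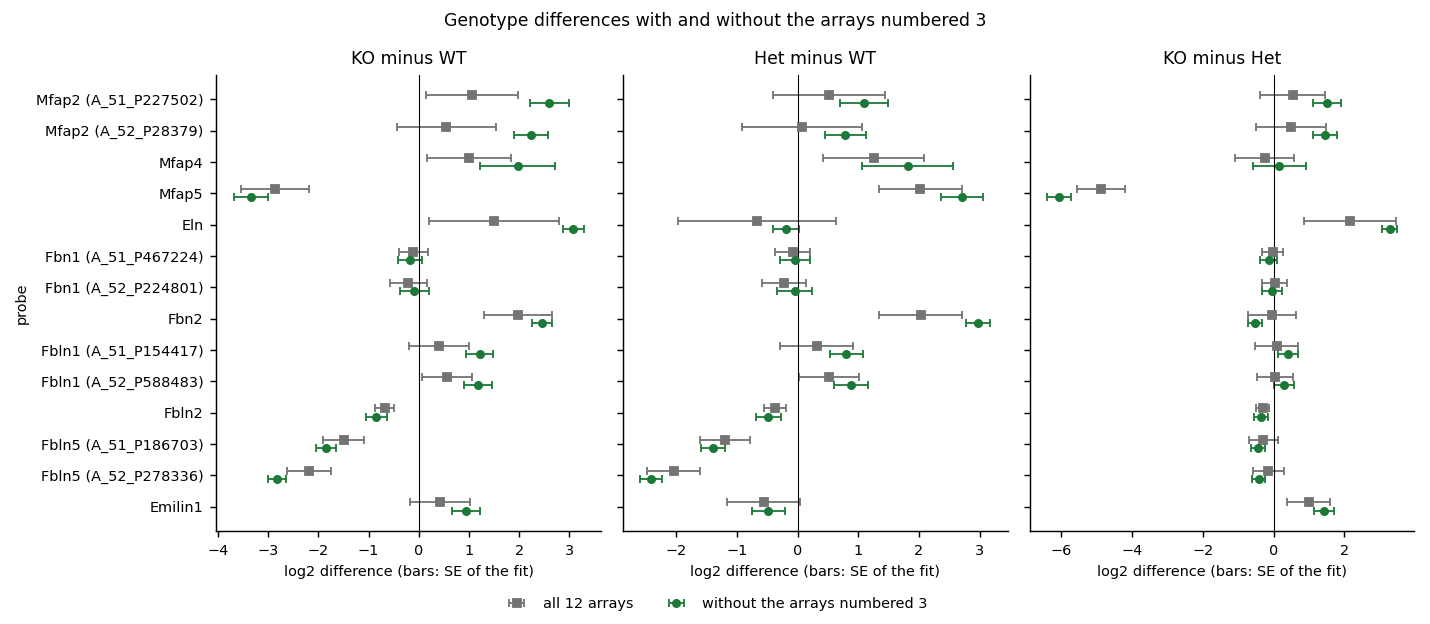
Difference between genotypes (x axis, log2, bars are the SE of the fit) for the 14 tested probes (y axis) in KO minus WT, Het minus WT and KO minus Het, on all 12 arrays and without those numbered 3. Eln KO minus WT lies at 1.49 on all arrays and at 3.08 without number 3, while Mfap5 KO minus Het lies far below 0 in both (−4.88 and −6.06).

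Among the fibulins, Fbln5 stood lower in KO and Het than in WT cells. Its protein binds tropoelastin and lysyl oxidase-like enzymes and is needed for elastic fibres to form in mice. Probe A_51_P186703 (chromosome 12, 99245331 to 99245390 on mm7, minus strand) read 3.78, 5.33, 3.54 and 3.47 in KO replicates 2, 3, 4 and 5. The Het replicates of those numbers read 4.38, 5.17, 3.86 and 3.91. WT replicates 1, 2, 3 and 5 read 5.24, 5.35, 5.77 and 5.73. All Het arrays lay below all WT arrays, and KO replicate 3 was the only KO array within the WT range. At this probe KO minus WT was −1.50 (SE 0.41), a 2.82-fold lower signal, and Het minus WT −1.20 (SE 0.41), 2.29-fold lower. Without number 3 these were −1.85 and −1.39 (SE 0.20 each). Within slides 3 and 4, KO minus WT was −1.78 and −2.23 and Het minus WT −1.18 and −1.83.

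A second Fbln5 probe, A_52_P278336 (99242020 to 99242079), was dimmer and showed the same order. It averaged −5.34 ± 1.04 in KO, −5.20 ± 0.50 in Het and −3.15 ± 0.30 in WT cells (SD, n = 4 each), and 1 Het array was not well above background. KO minus WT was −2.20 (SE 0.44) and Het minus WT −2.05 (SE 0.44), with no overlap in either. With the normexp background correction these were −0.94 and −1.23, so the size at this dim probe rests on the background correction. The third probe, A_52_P288050 (99259844 to 99259903), was well above background on 1 WT array only and was not tested.

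The RefSeq promoter of Fbln5 (GRCm38.p6, chr12:101819120-101819369, minus strand) is given 5′ to 3′ on the gene's strand, with the same motifs in capitals. It too lies before the more upstream of 2 listed starts, and the other was not examined.
Fbln5: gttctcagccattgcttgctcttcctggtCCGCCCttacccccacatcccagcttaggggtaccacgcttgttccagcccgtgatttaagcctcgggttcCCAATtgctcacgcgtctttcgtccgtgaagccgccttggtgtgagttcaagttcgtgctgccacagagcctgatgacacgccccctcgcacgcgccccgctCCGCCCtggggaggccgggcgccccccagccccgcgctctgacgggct
It held 2 GC box matches on the other strand and 1 CCAAT match, against 1 CCAAT match and 0 GC boxes in the Mfap2 promoter above. A match is a run of letters and shows nothing about binding in these cells.

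**Figure D3:**
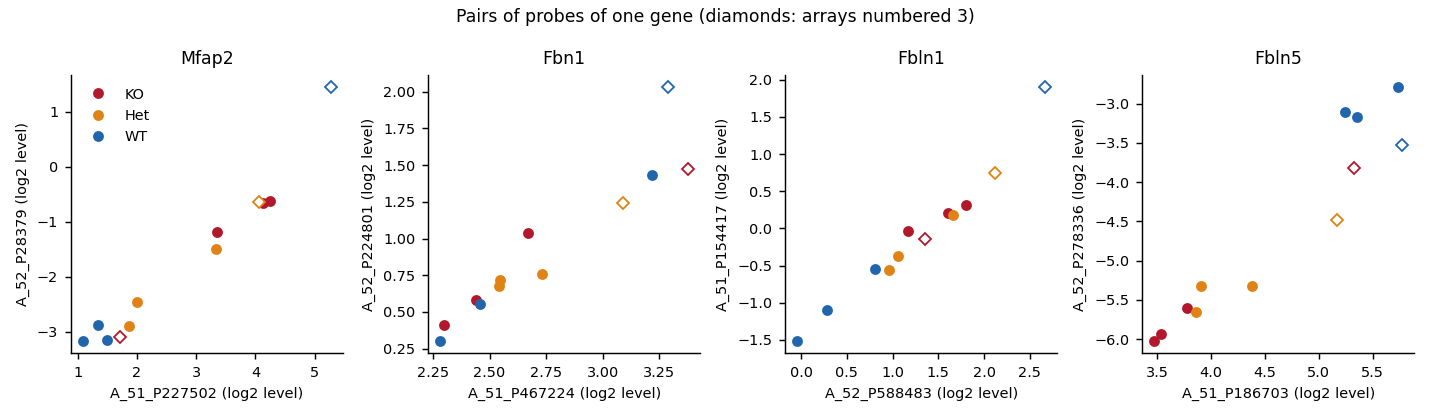
Levels (log2, relative to the 75th percentile) on the 12 arrays of pairs of probes of Mfap2, Fbn1, Fbln1 and Fbln5, 1 probe on each axis, coloured by genotype, with open diamonds for arrays numbered 3. The pairs follow each other over the arrays (r = 0.98, 0.94, 0.98 and 0.95, descriptions over arrays that share RNA), and WT replicate 3 lies at the top right in the Mfap2 and Fbln1 panels.

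Fbln1, whose protein lies within the elastin core, has 2 probes on adjacent stretches of chromosome 15, plus strand. Probe A_52_P588483 (85367889 to 85367948 on mm7) read 1.17, 1.35, 1.81 and 1.60 in KO replicates 2, 3, 4 and 5, and 1.66, 2.12, 0.96 and 1.06 in Het replicates. Among WT arrays, replicates 1, 2, 3 and 5 read 0.81, −0.04, 2.67 and 0.29. WT replicate 3 stood above every other array. At this probe KO minus WT was 0.55 (SE 0.50), and 1.17 (SE 0.28) with no overlap when number 3 was left out. Probe A_51_P154417 (85367745 to 85367805) gave 0.40 (SE 0.60) and 1.21 (SE 0.28).

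Fbln2, a fibulin at the border of elastin and microfibrils, had small differences with little spread (A_52_P590535, chromosome 6, 91354450 to 91354509 on mm7, plus strand). It averaged 4.48 ± 0.17 in KO, 4.78 ± 0.07 in Het and 5.16 ± 0.38 in WT cells (SD, n = 4 each). KO minus WT was −0.68 (SE 0.19), 1.60-fold lower, and Het minus WT −0.37 (SE 0.19), and neither pair of groups overlapped. Without number 3, Fbln2 KO minus WT was −0.84 (SE 0.20).

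Emilin1, the glycoprotein at the face between elastin and microfibrils, is read by 1 probe (A_51_P222359, chr5:29952688-29953144 on mm7, plus strand). Its 60 bases are shown because the array file places them over 457 bases of genome, so the probe does not lie in 1 unbroken stretch.
A_51_P222359: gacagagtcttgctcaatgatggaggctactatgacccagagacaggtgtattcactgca
Emilin1 read 1.38, 1.43, 0.97 and 1.07 in KO replicates 2, 3, 4 and 5. It read 0.24, 1.76, −0.68 and −0.42 in the Het replicates of those numbers and 0.35, −0.22, 2.55 and 0.46 in WT replicates 1, 2, 3 and 5. The KO arrays were close together, as for Eln, while here number 3 was the highest array in all 3 genotypes. For Emilin1, KO minus WT was 0.43 (SE 0.60) and KO minus Het 0.99 (SE 0.60), both with overlap. Without number 3 these were 0.94 and 1.42 (SE 0.27 each), with no overlap. Within slides 1, 3 and 4, KO minus Het was 0.89, 1.14 and 1.43.

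Counts over the 14 tested probes stand beside those over all tested probes. A probe was called at a Benjamini-Hochberg adjusted p under 0.05 over all tested probes. On all 12 arrays 1 member probe was called in KO minus WT (Fbln5 A_52_P278336, lower), against 1.5% of all probes. In Het minus WT limma called 0, against 1.09%, and 4 of the 14 had an unadjusted p under 0.05, against 15.9% of all probes. In KO minus Het 1 was called (Mfap5, lower), against 0.816%. Leaving out 1 array moved the KO minus WT count to 5 without WT replicate 3, 3 without KO replicate 3, 2 without Het replicate 3 and 0 without any of the other 9 arrays. It moved the Het minus WT count to 2 without WT or Het replicate 3 and 1 without KO replicate 3, and left the Mfap5 call in KO minus Het in place each time. Groups did not overlap for 3 probes in KO minus WT (8.65% of all probes), 3 in Het minus WT (8.68%) and 1 in KO minus Het (9.93%). The median difference was 0.41 over the members against 0.04 over all probes in KO minus WT, −0.01 against 0.02 in Het minus WT, and 0.00 against 0.00 in KO minus Het.

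Without the arrays numbered 3, 26804 probes were tested. There 11 of the 14 member probes were called in KO minus WT, 7 higher and 4 lower, against 15.4% of all probes. The 7 are those of Mfap2, Eln, Fbn2, Fbln1 and Emilin1, and the 4 those of Mfap5, Fbln2 and Fbln5. In Het minus WT 4 were called, those of Mfap5 and Fbn2 higher and those of Fbln5 lower, against 10.2%. In KO minus Het 4 were called, Mfap5 lower and Eln, Emilin1 and 1 Mfap2 probe higher, against 7.82%. Groups did not overlap for 11 probes (34.6% of all), 7 (30.1%) and 8 (34%) in the same order of contrasts. The members were chosen on these contrasts, so nothing is read from these shares. KO minus WT and Het minus WT share the WT arrays.

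The arrays numbered 3 did not move these genes 1 way in all genotypes. Their distance from the mean of the other arrays of their genotype had a median over the 14 probes of 0.30 in KO, 0.97 in Het and 2.34 in WT, against 0.01, −0.06 and −0.13 over all tested probes. On number 3, Eln stood −0.42 from the other KO arrays, 4.01 from the other Het arrays and 5.91 from the other WT arrays. Mfap2 (A_51_P227502) stood at −2.21, 1.66 and 3.96 in that order, so its sign turned in KO cells. Mfap5 ran otherwise, with 1.62 in KO, −3.07 in Het and −0.31 in WT. Of the member probes, 6 in KO, 6 in Het and 9 in WT stood over 2-fold from the others, against 9.11%, 11.6% and 26.3% of all tested probes. WT replicate 3 is also the array whose sex genes go against the label, and what sets the arrays numbered 3 apart was not tested.

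**Figure D4:**
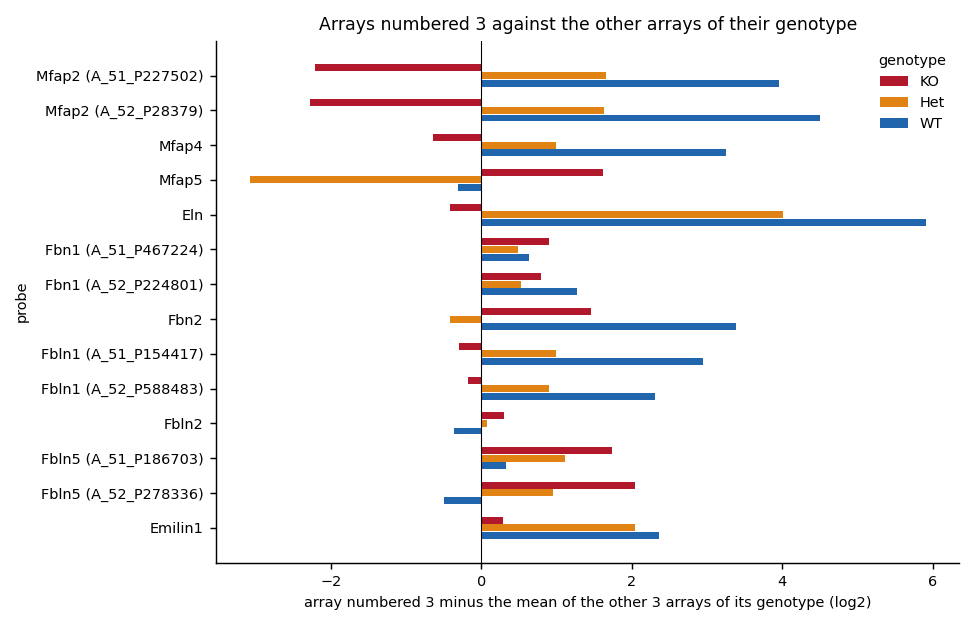
Level on the array numbered 3 minus the mean of the other 3 arrays of its genotype (x axis, log2) for the 14 tested probes (y axis), with bars for KO, Het and WT. Eln reaches 5.91 in WT and 4.01 in Het but −0.42 in KO, and Mfap5 runs the other way in Het (−3.07).

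The probes whose levels followed Mfap5 most closely were found by Pearson's r over tested probes, 1 per gene. Over 12 arrays these were Nkd2 (0.97), Lpar1 (0.95), Inka1 (0.95), Cfap299 (0.94) and Tep1 (0.94). Over the 9 arrays not numbered 3 they were Hoxb13, Ank1, Oasl1, Ctsk and Kitl, at 0.99 each. The lists share no gene, and the correlations describe arrays that share genotype groups and slides.

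Other elastic fibre genes were listed by function, 34 in all. Of these, 33 were found on the array and 29 had a tested probe, with 42 probes. They cover cross-linking enzymes, latent TGF-beta binding proteins, ADAMTS and ADAMTS-like proteins of the microfibril, other fibulins, emilins and multimerins, chaperone and proteoglycan partners, and elastin-degrading proteases. On all 12 arrays limma called 0 of the 42 probes in KO minus WT and 0 in Het minus WT, where 10 (23.8%) and 8 (19.0%) had an unadjusted p under 0.05, against 16.2% and 15.9% of all probes. In KO minus Het 1 was called, that of Ctsk, against 0.816% of all probes, and the median difference over the list was −0.12.

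Ctsk encodes cathepsin K, a cysteine protease that cuts collagen and elastin. It read −5.39, −1.73, −5.71 and −5.54 in KO replicates 2, 3, 4 and 5, and 0.51, 0.53, 0.52 and 0.54 in the Het replicates. WT replicates 1, 2, 3 and 5 read −0.10, −2.69, −4.97 and −1.82. All Het arrays lay above all others. Ctsk was lower in KO than in Het cells by the limma test (−5.12, SE 1.01, adjusted p = 0.0426). The call was lost with slide as a block (−4.76, adjusted p = 0.0665) and without any 1 of KO replicates 2, 4 and 5, Het replicates 2, 4 and 5 and WT replicates 2 and 5 (−5.12 to −4.75, adjusted p 0.0658 to 0.162). Without number 3 the limma adjusted p was 3.0e-04 (−6.07, SE 0.53). Over those arrays Ctsk also lay lower in KO than WT (−4.01, adjusted p = 0.00192) and higher in Het than WT (2.06, adjusted p = 0.0439), with the Het cells uppermost as for Mfap5.

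Mmp2, gelatinase A, had differences of the opposite sign to those of Ctsk in KO minus Het and Het minus WT. It read 3.43, 1.80, 3.42 and 3.56 in KO replicates 2, 3, 4 and 5, and 0.85, 2.31, 0.39 and 0.04 in the Het replicates. WT replicates 1, 2, 3 and 5 read 1.59, 2.25, 4.01 and 2.58. Mmp2 KO minus Het was 2.16 (SE 0.61, limma adjusted p = 0.167), not past the threshold, and 3.05 (SE 0.28, limma adjusted p = 3.53e-04) without number 3. Its Het minus WT difference was −1.71 (SE 0.61, limma adjusted p = 0.202), and −1.72 (SE 0.28, limma adjusted p = 0.00673) without number 3.

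Efemp1 (fibulin-3) and Hmcn1 (hemicentin-1, an extracellular member of the fibulin family) were the others with large differences. Efemp1 read 2.90, 3.23, 3.37 and 3.21 in KO replicates 2, 3, 4 and 5 and 5.95, 3.27, 5.45 and 5.21 in the Het replicates. In WT replicates 1, 2, 3 and 5 Efemp1 read 4.40, 3.54, 2.42 and 3.22. Its Het minus WT difference was 1.57 (SE 0.53, limma adjusted p = 0.185), and 1.81 (SE 0.32, limma adjusted p = 0.00928) without number 3. Hmcn1 (A_51_P393518) averaged −2.02 ± 0.46 in KO, −3.91 ± 1.88 in Het and −4.42 ± 4.15 in WT cells (SD, n = 4 each), and WT replicate 3 read 1.60. Hmcn1 KO minus WT was 2.40 (SE 1.65, limma adjusted p = 0.524), and 4.17 (SE 0.57, limma adjusted p = 0.00219) without number 3. Its probe A_52_P22590 gave 1.97 (SE 1.55, limma adjusted p = 0.588) and 3.74 (SE 0.39, limma adjusted p = 5.65e-04). Without number 3, 2 of 3 WT arrays at A_51_P393518 and 1 of 3 at A_52_P22590 were well above background, so these differences rest partly on signals near background. With the normexp background correction on all arrays, Hmcn1 KO minus WT was 1.17 and 0.62 at these probes.

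**Figure D5:**
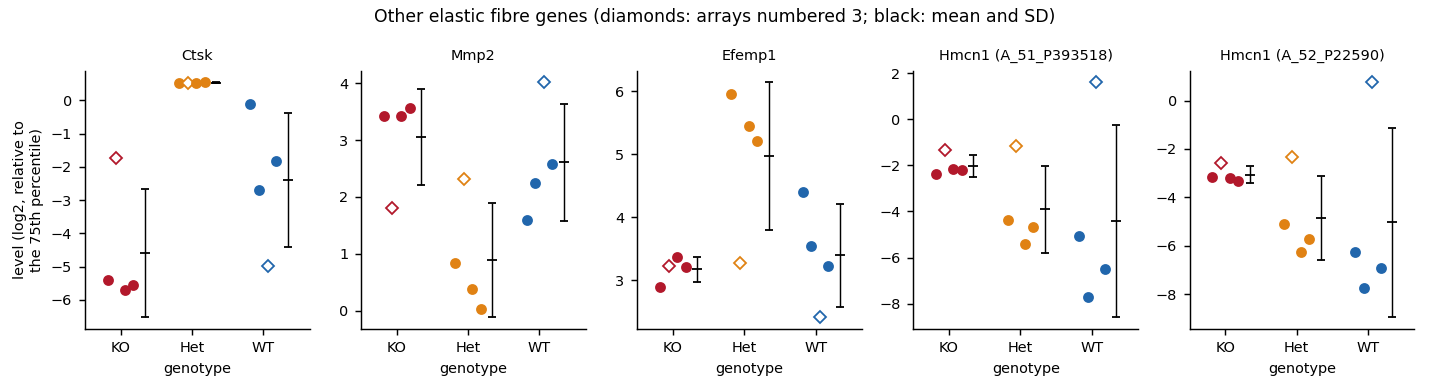
Levels (y axis, log2 relative to the 75th percentile) of Ctsk, Mmp2, Efemp1 and Hmcn1, named by the size of their differences, on each array of KO, Het and WT cells (x axis). Points are arrays, open diamonds those numbered 3, and black marks the mean and SD. The 4 Het arrays of Ctsk lie between 0.51 and 0.54, and WT replicate 3 of Hmcn1 lies at 1.60, above every other array.

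Without the arrays numbered 3, 43 probes of the listed genes were tested, and limma called 16 in KO minus WT (6 higher and 10 lower, 37.2%, against 15.4% of all probes). It called 8 in Het minus WT (18.6%, against 10.2%) and 7 in KO minus Het (16.3%, against 7.82%). The genes named next were chosen after their values were seen, so their adjusted p-values are given as a description only. Of the 9 cross-linking probes, 2 were called higher in KO minus WT and 1 lower. The lower one was that of Loxl3, with a mean of −2.10 in KO and −0.40 in WT cells. Loxl2, a lysyl oxidase-like cross-linking enzyme, rose at both its probes in KO minus WT (1.00 and 0.79, limma adjusted p = 0.00388 and 0.00487) and in Het minus WT (1.33 and 1.01, limma adjusted p = 0.00142 and 0.00214). Adamtsl5, a microfibril-binding ADAMTS-like protein, fell at 3 probes in KO minus WT (−1.48, −1.66 and −1.08, limma adjusted p = 7.35e-04, 0.00521 and 0.0199). Thsd4 (ADAMTSL6), which promotes fibrillin-1 assembly, fell in KO minus WT at its tested probe (−2.17, limma adjusted p = 2.86e-04). The other Thsd4 probe was well above background on 3 arrays and was not tested. Of the 12 microfibril ADAMTS and ADAMTS-like probes, 5 were called lower in KO minus WT and 1, of Adamtsl3, higher. Ltbp4, which binds latent TGF-beta and fibulin-5, fell in KO minus WT as well (−1.15, limma adjusted p = 0.00173). On all 12 arrays none of these was called by limma. There Loxl2 KO minus WT was 0.20 and 0.13 and Het minus WT 0.55 and 0.60. KO replicate 3 read −1.56 and 1.66 for Loxl2, below every WT array, and Het replicate 3 read −1.14 and 2.88. On all arrays KO minus WT was −1.03, −1.30 and −0.83 for Adamtsl5, −1.74 for Thsd4 and −1.23 for Ltbp4, so their sign did not rest on number 3.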

How the data were processed

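RNA of MEFs was hybridised in 12 samples to 1-colour Agilent mouse arrays. Per the submitters' processing notes, spots were extracted with Agilent Feature Extraction 9.5. In the deposited spot tables this is a linear intensity from which that software had subtracted the background, not yet scaled between arrays, and the authors' series table holds the same intensity, with a largest difference of 0. Each array has 43379 spots that are not controls. Of these, 60.0% to 78.2% were well above background, and this share was highest on slide 4, whose arrays also had the lowest detection floor. Up to 4 spots an array were saturated. The number of arrays limits the precision.

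Outlier spots were left out, spots of a probe averaged, and log2 signals scaled to each array's 75th percentile over probes that are not controls. Each probe was a feature in limma 3.58.1 (R 4.3.3), with 1 mean per genotype, empirical Bayes moderation and Benjamini-Hochberg adjustment over all tested probes. Figures used matplotlib 3.10.9 in Python 3.11.15. Slides were read from the names of the spot tables, and all scans were made on 1 day. Of the 41174 probes, 23079 were named through an accession, 6582 through a symbol and 3074 through a synonym in a RefSeq table, and 8439 keep the array's name. Coordinates are on mm7, per the file headers, where no gene models were used here.

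Members and lists were chosen with earlier results of these data known. Named genes are all members. Of the other elastic fibre genes, those called on all arrays and, per contrast, the 3 probes with the largest difference were named. Loxl2, Loxl3, Adamtsl3, Adamtsl5, Thsd4 and Ltbp4 were named outside this rule, after their values were seen. For the member with the largest SD, the 5 genes with the highest r were named. Alternatives concerned scaling, background correction, filters, slide and replicate blocks, array weights, and arrays left out.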

Additional observations from a re-analysis of the deposited data

Results flagged for a closer look

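In 57 groups of 4 arrays (1 probe in 1 genotype), the highest or lowest array was set against the range of its group, and 11 groups held an array that stood far from its nearest neighbour (above Dixon's 95% critical ratio). Chance alone does so in about 1 group of 20, but these probes were chosen with results in view, so nothing is read from the share of 19.3%. Over all tested probes it was 7.94% of 76803 groups, and 68.5% of those arrays were numbered 3. Of the 11 arrays, 10 were numbered 3, and 4 of these were WT replicate 3.

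WT replicate 3 stood above the other WT arrays at the Mfap2 probes A_51_P227502 (5.27, others 1.09 to 1.49) and A_52_P28379 (1.45, others −3.16 to −2.87). The same array stood above the others for Eln (2.33, others −3.82 to −3.29) and Fbn2 (2.11, others −1.52 to −1.03). Het replicate 3 stood above the other Het arrays for Eln (0.24, others −4.02 to −3.38) and for Fbn1 at A_52_P224801 (1.24, others 0.68 to 0.76). It stood below them for Mfap5 (−2.12, others 0.83 to 1.15). KO replicate 3 stood above the other KO arrays for Fbln5 at A_51_P186703 (5.33, others 3.47 to 3.78) and for Ctsk (−1.73, others −5.71 to −5.39), and below them for Mmp2 (1.80, others 3.42 to 3.56). The array not numbered 3 was WT replicate 1, which read 5.73 for Fbln2 (others 4.89 to 5.03).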

How the results depend on the processing

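Called counts moved with several settings, while 937 of 951 values of single member probes moved by less than the pooled SD within the 2 genotypes compared. That SD includes the arrays numbered 3 and is wide for several probes, and array weights moved 7 of the other 14. The sign turned in 65 of the 951 values, 38 of them in KO minus Het, 19 in Het minus WT and 8 in KO minus WT, all from differences of at most 0.67 that were not called. For KO minus WT, 383 probes were called, and 153 with no scaling, 168 with normexp, 119 with no filter, 72 with slide as a block, 4133 without the arrays numbered 3 and 11964 with array weights. Of the members 1 was called, and 0 with no scaling, normexp, no filter, the filter on all 12 arrays, 1 probe per gene or slide as a block, but 11 without number 3 and 11 with array weights. Of the other elastic fibre probes 0 were called, but 16 without number 3 and 24 with array weights. For Het minus WT, 278 probes were called, and 162 with no scaling, 59 with normexp, 61 with no filter, 58 with slide as a block, 2739 without number 3 and 6128 with array weights. Members counted 0, but 1 with no scaling, 4 without number 3 and 5 with array weights, and the other elastic fibre probes 0, but 8 and 16 with those last settings. For KO minus Het, 209 probes were called, and 88 with normexp, 87 with no filter, 121 with the filter on all 12 arrays, 107 with slide as a block, 2097 without number 3 and 8331 with array weights. Members counted 1, but 4 without number 3 and 6 with array weights. The other elastic fibre probes counted 1, but 0 with normexp, no filter or slide as a block, 7 without number 3 and 22 with array weights. With no scaling the median of all probes was −0.21 in Het minus WT and 0.25 in KO minus Het, and calls split 28 higher and 134 lower in Het minus WT, against 135 and 143 with scaling. In KO minus Het that split was 171 and 38, against 134 and 75. With normexp it was 62 and 26 there, and 102 and 66 in KO minus WT, against 196 and 187. Leaving out 1 array gave 68 to 2398 called probes in KO minus WT, 40 to 2027 in Het minus WT and 49 to 526 in KO minus Het. Members then counted 0 to 5, 0 to 2 and 1 to 1, the other elastic fibre probes 0 to 6, 0 to 3 and 0 to 4, and member medians ran from 0.05 to 1.07, −0.30 to 0.93 and −0.13 to 0.12. The causes were not tested.

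Replicate numbers did not pair the samples throughout. Deviations of arrays of 1 number correlated at 0.07 to 0.30 between KO and WT. They correlated at −0.03 to 0.40 between Het and WT and −0.09 to 0.35 between KO and Het. Those of different numbers correlated at −0.27 to 0.20, −0.41 to 0.37 and −0.29 to 0.35 in that order. The arrays numbered 3 correlated with each other at 0.20, 0.40 and 0.35, which did not set them clearly apart. KO and WT replicates 5 correlated at 0.30. Het replicate 4 and WT replicate 2 correlated at 0.37, and KO replicate 2 and Het replicate 5 at 0.35. With the replicate block the calls were 146 in KO minus WT and 110 in Het minus WT, with 0 members in KO minus WT, and the other elastic fibre probes counted 1 in KO minus WT and 0 in KO minus Het. With the replicate block over numbers 2, 3 and 5 the calls were 12, 6 and 13 in the 3 contrasts, with 0 members in KO minus WT and in KO minus Het and 0 of the other elastic fibre probes in KO minus Het. The Ctsk difference in KO minus Het lost its call with normexp (limma adjusted p = 0.0682), with no filter (0.0917) and with the replicate block (0.0698). Dim probes such as Fbln5 A_52_P278336 are limited by the signal over background.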
